A study of Mus musculus with 30 samples.

Results

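The genes described here are 5 beta-defensins of mouse epithelium, Defb1, Defb3, Defb4, Defb6 and Defb14, out of 18784 genes measured and out of 42 symbols that begin with Defb. Each was read by 1 probe set, and the 5 probe sets carry the Entrez gene identifiers 13214, 27358, 56519, 116746 and 244332. They were selected on the strong rise of the Defb4 value in double knockout arrays on benzo[a]pyrene (BaP), so for these 5 genes that rise and every difference built on DKO arrays is given below as a description with no test. Glands came from male mice on a B6 background, labelled wild type (WT), Cyp1a1 KO or Cyp1a1/1b1 DKO. CYP1A1 and CYP1B1 are enzymes that oxidise BaP, a carcinogenic hydrocarbon of smoke, and the design compared the genotypes with each other and the times within each genotype. Feeding of BaP, in food soaked in corn oil, started when the mice were 6 weeks old and came to roughly 12.5 mg/kg/day. Glands were taken at weeks 0, 4, 8, 12 and 16 from groups of 15 mice, and 2 mice per group went on arrays, which gave 30 arrays in 15 groups. Week 0 mice were the only animals without BaP, so time on BaP and age cannot be told apart. The tissue is labelled preputial gland duct, the duct of a paired sebaceous gland of the male mouse that is lined by squamous epithelium.

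Beta-defensins are small cationic peptides, folded by disulfide bonds, that epithelia secrete to kill bacteria and fungi and that also attract immune cells. Defb1, the counterpart of human DEFB1, is made by many epithelia at a steady level. Defb4, Defb3 and Defb14 are known as inducible, switched on in skin and airway by bacterial products and by cytokines such as IL-1, IL-17 and IL-22. Defb14, the counterpart of human DEFB103, also acts on the chemokine receptor CCR6. Defb6 is known from skeletal muscle as well as from epithelia.

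Defb14, Defb4, Defb6 and Defb3 lie close together on chromosome 8 in the order Spag11a, Defb14, Defb4, Defb6, Defb46, Defb5, Defb3, Defb8, with Defb1 elsewhere on the same chromosome between Defa24 and Defb50. Promoter windows of 250 bases before the start site could be matched for 2 of the 5 genes, Defb6 and Defb3. They are shown because these neighbours had unlike levels, with Defb6 high in every array and Defb3 low outside the double knockout. Both come from RefSeq on build GRCm38.p6, plus strand, Defb6 at chr8:19225228-19225477 and Defb3 at chr8:19293111-19293360. Capitals mark matches to a C/EBP motif (TTNNGNAA), to NF-kB or to TATATAAG, searched on both strands and with no overlap between the matches.

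Defb6: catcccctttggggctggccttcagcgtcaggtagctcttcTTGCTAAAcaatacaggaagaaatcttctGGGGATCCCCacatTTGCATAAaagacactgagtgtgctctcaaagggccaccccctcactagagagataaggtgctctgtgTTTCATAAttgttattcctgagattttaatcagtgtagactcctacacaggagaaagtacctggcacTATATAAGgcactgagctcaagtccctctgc
Defb3: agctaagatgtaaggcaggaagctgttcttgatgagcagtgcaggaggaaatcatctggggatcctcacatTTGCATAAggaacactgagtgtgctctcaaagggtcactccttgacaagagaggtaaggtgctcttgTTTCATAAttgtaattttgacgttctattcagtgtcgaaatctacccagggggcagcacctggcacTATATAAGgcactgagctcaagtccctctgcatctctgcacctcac

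The windows were 72.5% identical, at 192 of 265 aligned columns. Both held TATATAAG, which 0.935% of 32851 windows of the same length held. That run of letters was picked after the windows had been read. Defb6 had 3 C/EBP matches and Defb3 had 2, a motif present in 36.8% of all windows. Only Defb6 had an NF-kB match, present in 7.25% of all windows. Neither window held the core of the aryl hydrocarbon receptor element (GCGTG, 28.2% of windows), the AP-1 motif (TGANTCA, 6.75%), the STAT motif (TTCNNNGAA, 7.02%) or TATAAA (12.4%). The window of Defb8, the next gene, was 86.6% identical to that of Defb3.

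Not all arrays spanned the same range. The SD over all genes of an array was 1.70 to 2.08 in 21 arrays and 1.15 to 1.42 in the other 9. These low-range arrays were 8 of the 10 labelled DKO and 1 of the 10 labelled KO (week 12 replicate 2). As a low-level reference, the 1259 genes of olfactory and vomeronasal receptors had an array median of 2.93 to 3.63 and a 95th percentile of 4.39 to 5.16 in normal-range arrays. In low-range arrays their median was 4.29 to 4.67 and their 95th percentile 5.65 to 6.07, so genes near the low end of the scale sat higher there. Of the targeted genes, Cyp1a1 lay between 3.67 and 6.14 in all 30 arrays, WT included. Cyp1b1 lay between 6.17 and 6.77 in WT and between 7.48 and 10.57 in arrays labelled DKO, and where its probes lie relative to the deletion is not known, so neither level checks the genotypes. DKO below means the arrays so labelled. The tissue was measured in bulk, so a change in the cells present and a change in RNA per cell cannot be told apart. Of the squamous keratinocyte markers, the basal keratin genes were high in every genotype, with Krt5 between 7.18 and 9.82 and Krt14 between 7.94 and 10.39. Others were low outside DKO, such as Krt1 at 3.67 to 4.26 in WT and 3.78 to 4.77 in KO.

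Defb1, the constitutive member, was high in every genotype. Its log2 intensity was 10.76 to 11.39 over the 10 WT arrays (median 10.98) and 10.85 to 11.75 over the 10 KO arrays (median 11.24). In DKO it was 11.81 and 10.26 at week 0, 10.52 and 10.96 at week 4, 10.89 and 9.83 at week 8, 10.77 and 10.53 at week 12, and 7.98 and 9.99 at week 16. The lowest Defb1 value of all 30 was DKO week 16 replicate 1, and the mean of that group, 8.98 ± 1.42 (SD, n = 2), ranked last of the 15 groups. The other 14 group means lay between 10.36 and 11.45. Late (weeks 12 and 16) minus early (weeks 4 and 8), the DKO difference was -0.73 ± 0.35 (SE), and -0.23 to -1.24 with 1 of the 8 arrays left out.

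Defb4 stayed near the low-level reference in WT. Its log2 intensity there was 3.76 and 3.56 at week 0 and 3.08 to 4.45 over the 8 arrays on BaP (median 3.33), and no WT array passed its own 95th percentile of the receptor genes. In KO it was 4.39 and 3.41 at week 0, 4.20 and 3.46 at week 4, 3.78 and 4.03 at week 8, 4.13 and 5.65 at week 12, and 4.23 and 5.86 at week 16. Only the last of these lay above the reference, and the array at 5.65 was the low-range one. In DKO it was 3.16 and 4.43 at week 0, 8.11 and 6.70 at week 4, 9.77 and 10.49 at week 8, 10.99 and 10.53 at week 12, and 11.04 and 9.98 at week 16. All 8 DKO arrays on BaP, which chose the gene, had Defb4 above their reference percentile. The group means fell in the order DKO week 12 (10.76 ± 0.32, SD, n = 2), week 16 (10.51 ± 0.75) and week 8 (10.13 ± 0.51), with the week 16 arrays overlapping both others, then DKO week 4 (7.41 ± 1.00), then KO week 16 (5.05 ± 1.16). Below these, the means of the other 10 groups ran from 4.89 down to 3.19 with overlapping arrays.

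Defb14 and Defb3 left the low-level reference in DKO later than Defb4 and with wider gaps between mice. Defb14 was 3.50 to 4.37 over the 10 WT arrays and 3.31 to 4.76 over the 10 KO arrays, with none above the reference. In DKO it was 4.09 and 4.83 at week 0, 4.83 and 4.71 at week 4, 5.43 and 9.70 at week 8, 8.11 and 9.44 at week 12, and 9.47 and 6.67 at week 16. At week 4, when both Defb4 values were already above the reference, both Defb14 values were below it, and at week 8 the 2 mice stood far apart. Defb3 was 3.64 to 4.04 over the WT arrays and 3.62 to 4.74 over the KO arrays. In DKO it was 4.46 and 5.74 at week 0, 4.10 and 5.67 at week 4, 6.78 and 8.19 at week 8, 9.56 and 9.68 at week 12, and 10.33 and 5.47 at week 16. DKO week 16 replicate 2 was the lower array for Defb3, Defb14 and Defb4 alike, and its Defb3 value lay within the range of week 0. Of the 8 DKO arrays on BaP, 5 were above the reference for Defb14 and 5 for Defb3.

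Defb6 was abundant in every array. In WT it was 8.76 and 8.78 at week 0, 8.52 and 8.57 at week 4, 8.80 and 8.83 at week 8, 9.80 and 9.75 at week 12, and 8.91 and 8.53 at week 16. Both week 12 mice stood above every other WT array. In KO it was 10.09 and 9.57 at week 0, 8.76 and 8.39 at week 4, 9.11 and 9.0 at week 8, 10.06 and 10.94 at week 12, and 10.72 and 10.10 at week 16. The KO values were lower at weeks 4 and 8 than at week 0 and at week 12 or 16. In DKO it was 9.59 and 9.85 at week 0, 10.93 and 11.13 at week 4, 11.96 and 12.10 at week 8, 11.76 and 11.49 at week 12, and 10.98 and 11.56 at week 16. The 4 DKO groups on BaP held the 4 highest means, from 12.03 at week 8 to 11.03 at week 4.

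**Figure D1:**
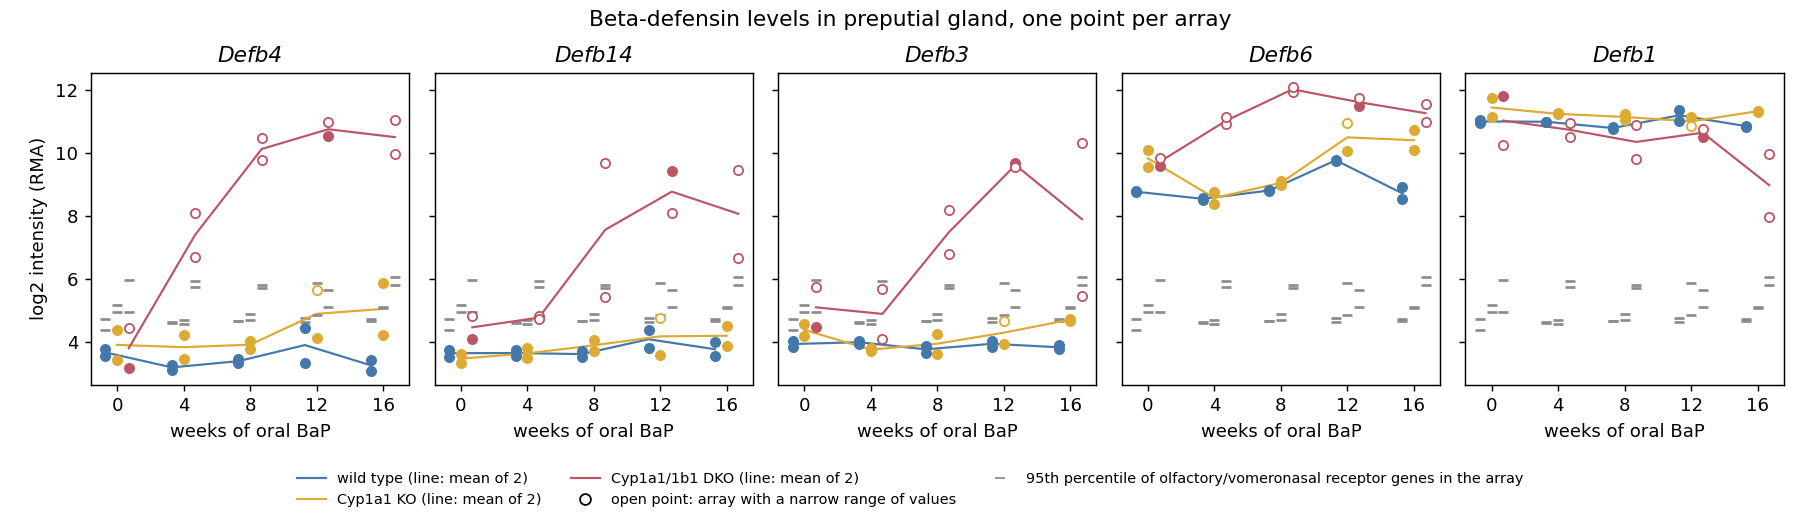
Log2 intensity of the 5 beta-defensins against weeks of oral BaP, with 1 point per array, lines through the means of 2 arrays, open points for low-range arrays and grey dashes for the 95th percentile of olfactory and vomeronasal receptor genes in each array. Defb4, Defb14 and Defb3 leave the grey dashes in DKO, Defb4 from week 4 on, while Defb6 and Defb1 lie above them in every array.

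The contrast that chose the genes is given here as a description. From week 0 to the mean of weeks 4 to 16 in DKO, Defb4 was higher by 5.91 on the log2 scale (SE 0.47), against a spread between replicates of 0.74 (SD). Defb14 differed by 2.83 (replicate SD 1.68), Defb3 by 2.38 (replicate SD 1.73), Defb6 by 1.77 (replicate SD 0.23) and Defb1 by -0.85 (replicate SD 0.88). Both week 0 values of Defb4, Defb14 and Defb3 lay below the reference percentile of their arrays, so no fold is given for these genes. In this contrast limma called 0.974% of genes, and 4.42% of genes had DKO arrays on BaP that did not overlap week 0, as Defb4 and Defb6 did. Against WT at weeks 4 to 16, where limma called 71.5% of all genes, Defb4 in DKO was higher by 6.27. Against KO at the same weeks, where it called 58.9%, Defb4 was higher by 5.28. At week 0, with 3.9% of genes called between DKO and WT, Defb4 stood at 3.80 in DKO and 3.66 in WT. The share of genes called on BaP moved with the low-range arrays, whose part in these differences was not tested. In the only 2 normal-range DKO arrays, week 0 replicate 1 and week 12 replicate 2, Defb4 was 3.16 and 10.53, a difference of 7.37. Between the same arrays Defb14 differed by 5.35 and Defb3 by 5.23. Each of these values compares 1 array with 1 array, and the week differs from that of the means over all arrays.

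**Figure D2:**
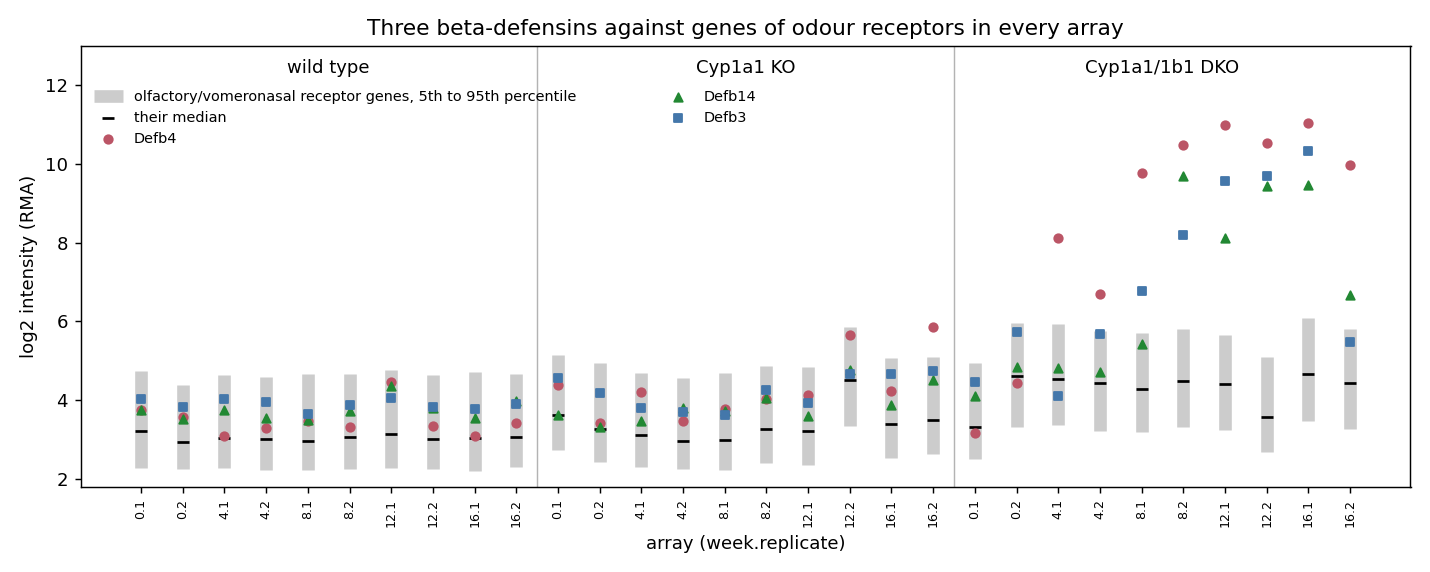
Log2 intensity of Defb4, Defb14 and Defb3 in each of the 30 arrays, ordered by genotype, week and replicate, over a grey bar from the 5th to the 95th percentile of olfactory and vomeronasal receptor genes and a dash at their median. All 8 DKO arrays on BaP have Defb4 above the bar, and the bar itself sits higher in the low-range arrays.

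Within DKO on BaP, the late arrays were set against the early ones, again as a description, since Defb4 was selected on the same 8 arrays. The mean of Defb4 was 8.77 at weeks 4 and 8 and 10.64 at weeks 12 and 16, a difference of 1.87 ± 0.42 (SE) with a replicate SD of 0.69. The late values, 9.98 to 11.04, overlapped the early values, 6.70 to 10.49. In this contrast limma called 0.628% of all genes, 73 higher and 45 lower, and 2.58% of all genes had groups that did not overlap, none of them a member. Defb3 differed by 2.57 ± 0.62 and Defb14 by 2.26 ± 0.62, with replicate SDs of 1.87 and 1.86. Defb6 differed by -0.08 ± 0.23, with means of 11.45 late and 11.53 early. With 1 array left out, the Defb4 difference ran from 1.51 to 2.22. That of Defb3 ran from 1.36 without week 16 replicate 1 to 3.79 without week 16 replicate 2, and that of Defb14 from 1.19 without week 8 replicate 1 to 3.32 without week 8 replicate 2.

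In WT the late against early differences were 0.29 for Defb4, 0.01 for Defb3, 0.30 for Defb14, 0.57 for Defb6 and 0.13 for Defb1. None was called, where limma called 1 gene (0.00532%) of 18784. As a description, the DKO difference minus that of WT was 1.58 ± 0.60 for Defb4, 2.57 ± 0.87 for Defb3 and 1.96 ± 0.87 for Defb14. Limma called 0% of all genes in that contrast, while 1122 had an unadjusted p under 0.05.

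In KO mice, Defb6 rose from early to late exposure. Its 4 early values, 8.76, 8.39, 9.11 and 9.0, all lay below its 4 late values, 10.06, 10.94, 10.72 and 10.10. The means were 8.81 and 10.46, a rise of 1.64 ± 0.23 (SE) or 3.12-fold (limma, adjusted p = 0.00517), and Defb6 was the only gene called, 0.00532% of those tested. Groups without overlap were common in this contrast, at 11.9% of genes, and 2689 genes had an unadjusted p under 0.05. Of the other 37 beta-defensins, at levels near the low-level reference, 36 had a positive difference, with a median of 0.45 against 0.11 over all genes and none called. Other lists of genes with low levels were similar, with 7 of 8 epididymis markers positive (median 0.55) and 10 of 10 male accessory gland markers (median 0.39), and the late side holds the low-range KO array. The week 0 values of 10.09 and 9.57 lay above the 4 early values, the first of them within the late range, and the mean of weeks 4 to 16 differed from week 0 by -0.20 ± 0.25 (adjusted p = 1.00). Without the low-range array, week 12 replicate 2, the rise was 1.42 (adjusted p = 0.0596), and the call was also lost without week 4 replicate 2 (0.108), week 8 replicate 2 (0.0761) or week 16 replicate 1 (0.123), with a variance trend and robust estimates (0.0572) and with only the groups compared (0.348). The 10 markers of skeletal muscle, another source of Defb6, had an array mean of 4.29 to 6.08 over the 8 KO arrays on BaP and 4.34 to 4.77 in WT, with 0 of 10 called from early to late and a median difference of 0.04. The highest single marker value, 8.58 for the troponin gene Tnnt3, came from a KO array. Acta1 and Ckm reached at most 6.83 and 6.30 in KO, and the part of muscle in the Defb6 level was not tested.

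Defb4 in KO differed from early to late by 1.10 ± 0.42 (adjusted p = 0.348), with late values of 4.13, 5.65, 4.23 and 5.86 against early values of 4.20, 3.46, 3.78 and 4.03. The late values were split, with replicate 2 high in both weeks. Defb3 differed by 0.65 (adjusted p = 0.540), Defb14 by 0.42 (adjusted p = 0.690) and Defb1 by -0.03 (adjusted p = 0.965).

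Averaged over the weeks on BaP, Defb6 was higher in KO than in WT, with the larger gaps at weeks 12 and 16. The means of KO and WT were 8.57 and 8.55 at week 4 and 9.06 and 8.81 at week 8. They were 10.50 and 9.77 at week 12 and 10.41 and 8.72 at week 16. Over weeks 4 to 16, Defb6 was 9.64 in KO and 8.96 in WT, higher by 0.67 ± 0.16 or 1.59-fold (limma, adjusted p = 0.0334). KO arrays ran from 8.39 to 10.94 and WT arrays from 8.52 to 9.80, so the groups overlapped. Limma called 1.5% of genes, 21 higher and 261 lower, so that Defb6 was among the few called higher. Defb4 was 4.42 in KO and 3.43 in WT, a difference of 0.99 ± 0.30 that missed the threshold (limma, adjusted p = 0.110). Without the low-range arrays the difference was 0.80. Over the other settings, limma called 34 to 2185 of all genes in this contrast. Defb1, Defb3 and Defb14 differed by 0.22, 0.29 and 0.20 with adjusted p of 0.676, 0.753 and 0.837. The Defb6 call was lost when any of 14 of the 16 arrays compared was left out (adjusted p 0.0524 to 0.120), the exceptions being KO week 12 replicate 1 and KO week 16 replicate 2, and with quantile normalization (0.114) or a variance trend (0.0866).

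At week 0, before BaP, Defb6 was 10.09 and 9.57 in KO and 8.76 and 8.78 in WT. The difference of 1.06 ± 0.32 was not called (limma, adjusted p = 0.408), where 0% of genes were called and 1292 had an unadjusted p under 0.05. The low-range arrays hold no week 0 array of either genotype, so a fit without them left this difference as it was. Over the other settings, limma called 0 to 2926 of all genes in this contrast. A call of Defb6 in some of them is therefore not read as a result. The week 0 differences of the other members ran from -0.17 for Defb14 to 0.45 for Defb3, none called.

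No member was called between exposed and week 0 arrays in WT or KO. Between weeks 4 to 16 and week 0, the WT differences ran from -0.23 for Defb4 to 0.19 for Defb6, and limma called 0% of genes, while 154 had an unadjusted p under 0.05. In KO they ran from -0.27 for Defb1 to 0.52 for Defb4, again with 0% called, while 258 genes had an unadjusted p under 0.05. The KO change minus the WT change was 0.75 ± 0.67 for Defb4 and -0.39 ± 0.36 for Defb6, where 0% of genes were called and 101 had an unadjusted p under 0.05.

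The neighbours in the gene cluster were read in the same DKO arrays. From week 0 to weeks 12 and 16 in DKO, with no test, the level differed by 0.23 for Spag11a, 3.96 for Defb14, 6.84 for Defb4, 1.72 for Defb6, 0.57 for Defb46, 1.18 for Defb5, 3.67 for Defb3 and 1.52 for Defb8. Defb14, Defb4 and Defb3 had the 3 largest of these 8 differences, on the arrays that chose them. Defb8, whose promoter window resembles that of Defb3 most, had late values of 5.06, 5.76, 5.39 and 5.21. The value of 5.76, from the normal-range array of week 12, lay above the reference percentile of that array (5.10). Over all 37 other beta-defensins the median difference in DKO was 0.30 for weeks 4 to 16 against week 0 (all genes 0.04) and 0.02 late against early (all genes -0.01). None was called in either contrast, at backgrounds of 0.974% and 0.628% of all genes, so a count of 0 of 37 is near the background. Close copies can share probes. The probe sequences were not used here, and whether a small difference at one gene holds signal of another was not tested.

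**Figure D3:**
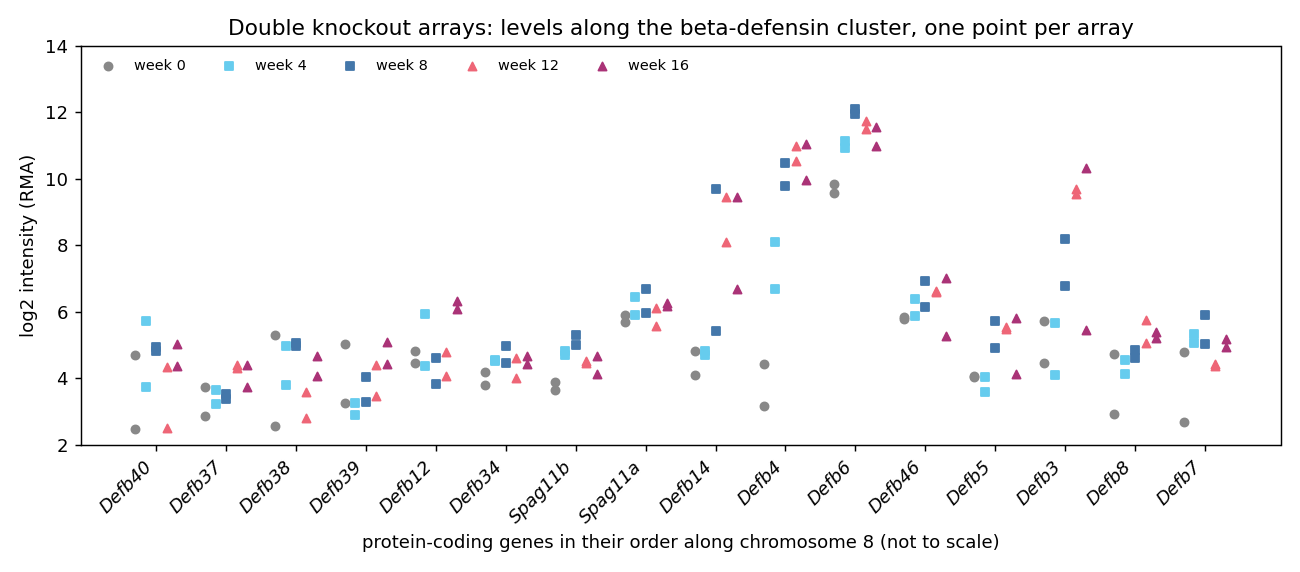
Log2 intensity in the 10 DKO arrays for 16 genes of the beta-defensin cluster in their order along chromosome 8, not to scale, with 1 point per array coloured by week. Defb14, Defb4 and Defb3 reach higher on BaP than their low week 0 levels, Defb6 starts high, and the genes from Defb40 to Spag11a reach at most 6.68.

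Likeness between genes was read over the 15 group means. For Defb4 the highest Pearson r were 0.986 for the protease gene Tmprss11d, 0.977 for the serpin gene Serpinb3a, 0.974 for the keratin gene Krt1, 0.970 for the cystine transporter gene Slc7a11 and 0.969 for Lce3a of the cornified envelope. Cnfn, Serpinb12, Serpinb3d, Lce1e and Lce1a1 followed at 0.966 to 0.969. These values describe 15 means of which 5 come from DKO and 4 of those are high, so they carry no p. Defb3 ran most like Sprr1b (0.987), Serpinb3a (0.983) and Sprr2f (0.982). Defb14 ran most like the calprotectin gene S100a8 (0.990), the keratin gene Krt6b (0.989) and Sprr1b (0.986). Sprr1b and Sprr2f encode cornified envelope proteins, and Sprr1b was shared by Defb3 and Defb14. Defb6 ran most like Ms4a13 (0.966), Smgc (0.964) and Fxyd4 (0.962), and Defb1 most like Emc2 (0.967), Trappc6b (0.963) and the mucin gene Muc15 (0.962). Among the members, r was 0.982 for Defb3 with Defb14, 0.964 for Defb4 with Defb14, 0.938 for Defb3 with Defb4 and 0.901 for Defb4 with Defb6, while Defb1 had -0.51 to -0.73 with the rest.

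**Figure D4:**
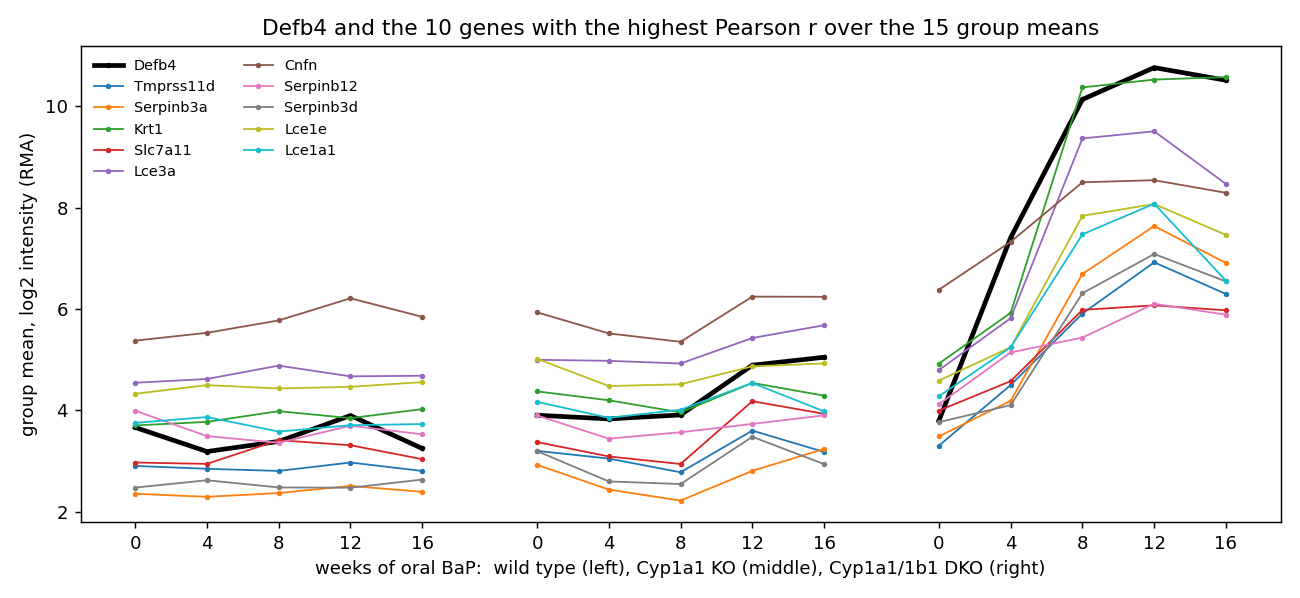
Group means in log2 intensity of Defb4 (black) and of the 10 genes with the highest Pearson r to it, against weeks of oral BaP in WT (left), KO (middle) and DKO (right). In WT no line reaches its late DKO level, and in DKO Defb4 has its main step between weeks 0 and 4 while Krt1 has it between weeks 4 and 8.

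Signals known to induce beta-defensins were counted in the same contrasts. This list and those in the paragraphs below were chosen with earlier results of these data known. Their calls on DKO arrays therefore give no independent support. Of 14 measured, 2 were called higher in DKO over weeks 4 to 16 against week 0, the IL-36 family genes Il1f8 (1.72) and Il1f9 (2.88), and none lower. The list's median was 0.67 against 0.04 over all genes. The first signals of the list in this contrast were Il1b at 1.45 (adjusted p = 0.0998), Il17a at 1.08 (0.128), Tnf at 0.16 (0.888) and Il1a at 0.92 (0.444), which were not called. From early to late DKO arrays, Il1b, the gene of the fever cytokine interleukin-1 beta, rose by 1.82 ± 0.39 (limma, adjusted p = 0.0305) and was the only 1 of the 14 called. Of 18 receptors and transducers upstream of defensin genes, 0 were called against week 0. Late against early, 1 was called higher, the NF-kB inhibitor gene Nfkbia. Tlr2, a receptor for bacterial lipoproteins, differed by 0.54 against week 0 (adjusted p = 0.267) and by 0.74 late against early (0.117). In the same order, Tlr4 differed by 0.02 (0.989) and 0.37 (0.772), and Il17ra by 0.25 (0.632) and 0.32 (0.565). Il22ra1, the IL-22 receptor, differed by 1.02 against week 0 (adjusted p = 0.0506) and by 0.18 late against early (0.808). Of the 4 genes for receptors of beta-defensins and their chemokine, none was called in either contrast. Ccr6 stood at 4.53 late and 4.96 early, and its chemokine Ccl20 at 4.97 and 5.16.

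Other antimicrobial proteins of epithelium were counted next. Of 20 measured, 2 were called higher in DKO against week 0, S100a8 (4.63) and S100a9 (3.83), the subunits of calprotectin. Late against early, 3 were called higher and 0 lower. They were S100a8, up by 3.99 (adjusted p = 0.00515), S100a9, up by 3.93 (0.0247), and the lysozyme gene Lyz2, up by 2.14 (0.0228). Lyz2 is also on the list of 7 macrophage markers, of which it and the complement gene C1qa (1.04, adjusted p = 0.0214) were called higher late against early. All 7 of these differences were positive, with a median of 0.89 against -0.01 over all genes, and the array mean of the list was 6.06 to 7.19 early and 6.71 to 8.00 late. Lcn2 and Slpi, secreted proteins that bind iron carriers and block proteases, differed against week 0 by 0.78 (adjusted p = 0.331) and 1.04 (0.0545). Camp, the cathelicidin gene, differed by 0.44 (0.495) and Pglyrp1 by 0.31 (0.605). The mean level of the list was 5.63 and 5.89 in WT at week 0, 5.61 and 5.89 in DKO at week 0 and 6.46 to 7.11 over the late DKO arrays.

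Markers of the cells that could carry these peptides were read beside them. Of 13 squamous keratinocyte markers, Krt1 and Krt10, keratins of the layers above the basal one, were called higher in DKO against week 0 and again late against early, by 2.40 and 1.30, and none was called lower. The basal keratin genes Krt5 and Krt14 differed by 0.22 and -0.03 late against early. The list's mean level was 7.98 and 8.03 at DKO week 0, 7.95 to 9.73 over the early DKO arrays and 8.93 to 9.83 over the late ones, with the lowest early array below both week 0 arrays. Its part in the defensin levels was not tested. Of 10 neutrophil markers, Cxcr2 and Mmp8 were called higher against week 0 and none late against early. Their mean level was 4.45 and 4.84 at DKO week 0 and 4.99 to 5.64 over the 8 DKO arrays on BaP. The highest DKO values of the 10 ran from 4.88 for Ngp and 5.03 for Ly6g to 7.87 for Cxcr4 and 9.06 for Cxcr2, with Mmp8 at 6.31. The part of neutrophils in the levels was not tested. Of the 8 epididymis and 10 male accessory gland markers, whose tissues also make beta-defensins, 0 were called in either contrast, and their highest values in DKO were 5.79 for Rnase9 and 5.44 for Pate4.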

How the data were processed

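RNA of 30 preputial gland samples, 2 mice in each of 15 groups, was amplified (Ovation Pico WTA) and biotin-labelled, per the labels' protocols. The values deposited, in log2 intensity units for each probe set, were made by RMA, per the submitters' processing notes, and its version and the annotation build are not given in the sources used here. Depth does not apply to arrays, and their number limits the precision. No 2 arrays held identical values. Of 21212 probe sets, 18786 carried 1 gene symbol, 6 several, and 2420 were not listed. The probe set with the highest mean stood for a gene, with no filter on low values.

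The members and lists were chosen with earlier results of these data known. One linear model with 15 group means was fitted to all arrays in limma 3.58.1 (R 4.3.3), tested on simulated data, with two-sided p values adjusted over 18784 genes by Benjamini-Hochberg and called under 0.05. Differences of the members on DKO arrays were fitted too but are given with no test, since those arrays chose the genes. Errors after ± are model standard errors unless SD is written. Named genes are the 5 members, the 10 genes most alike to Defb4 and 3 most alike to each other member over group means. They also include genes among the first 4 measured of a list, the other genes called on a list and the neighbours in the cluster. For some lists not all of the first 4 are named. Other list genes given with a highest value, and the single genes called where a count was 1 or 2, were named after their values were seen. Promoters were aligned with Biopython 1.88. Alternatives were other normalizations and variance models, blocks, number ranges of the labels (1 to 20 and 22 to 33), and leaving out low-range arrays (SD under 1.5) or each array in turn.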

Additional observations from a re-analysis of the deposited data

How the results depend on the processing

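Over the 35 member differences of WT and KO with a test, other settings gave 751 values. Of these, 720 were on the same side of the threshold, 22 were calls lost, 9 gained and 0 called values of opposite sign. Most of the 720 were differences not called in either fit. All the lost calls were of Defb6. Between KO and WT on BaP its call was lost in 2 of 11 settings and for 14 of 16 left-out arrays. From early to late in KO it was lost in 2 of 11 settings and for 4 of 8 left-out arrays. The count of the 5 members called between KO and WT at weeks 4 to 16 was 1, with 0 under quantile normalization or a variance trend with robust estimates, 2 under array weights, only the groups compared, numbers 1 to 20 or without low-range arrays, and 0 to 2 when each array was left out in turn. At week 0 it was 0, and 1 within numbers 1 to 20 or without low-range arrays. From early to late, the number of members past limma's threshold in DKO, where the arrays chose the genes and nothing is read from it, was 1, with 3 under quantile normalization or the number range as a block, 0 under array weights, only the groups compared or within numbers 22 to 33, and 0 to 4 with 1 array left out. In WT it was 0, and 1 under array weights. In KO it was 1, with 0 under a variance trend or only the groups compared and 0 to 2 with 1 array left out. The replicate number paired no samples (median r of group deviations -0.02 over 105 pairs), and with it as a block no call of a member in WT or KO changed. Of the described differences, the number block gave 1.48 for Defb6 from week 0 in DKO, and 4.88 for Defb4 against WT and 4.06 against KO on BaP, the last also within numbers 22 to 33 (4.06). Without low-range arrays these became 7.37 (Defb4), 5.35 (Defb14) and 5.23 (Defb3) from week 0, and 7.10 and 6.30 for Defb4 against WT and KO. The week 0 difference of Defb4 between DKO and WT turned from 0.13 to -0.55 under quantile normalization, -0.038 with median centring, -0.56 with the number block, and -0.50 within numbers 1 to 20 or without low-range arrays, with -0.50 to 0.77 when 1 array was left out. The cause of these changes was not tested. All-gene calls ranged from 34 to 2185 between KO and WT on BaP (282), 0 to 2926 at week 0 (0), 1 to 1003 from early to late in DKO (118), 0 to 4163 in KO (1), 0 to 537 in WT (1), 2 to 1508 from week 0 in DKO (183), and, on BaP, 151 to 13608 for DKO against WT (13429), 4 to 12237 against KO (11073) and 0 to 7444 at week 0 (732). The early to late contrast of DKO could not be fitted without low-range arrays or within numbers 1 to 20, nor could other contrasts that lost a side within a number range.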

Other observations

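Of 9 genes of sebocytes and lipid, Elovl3, Mc5r and Acsbg1 were called lower in KO than in WT over weeks 4 to 16. Limma called 1.5% of all genes in that contrast, 261 lower and 21 higher, Defb6 among the latter. The list's median was -0.63 against 0.08 over all genes. At week 0, before BaP, its median was already -0.68 against 0.14, with none called.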
